A study of Mus musculus with 4 samples.

Results

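The 58 genes described here are cell cycle genes, 20 that act in S phase, 33 that act in G2 or M phase and 5 cyclins of G1 and the G1/S transition. They were picked by name as rows of the 4 count matrices, out of 32285 genes, and each of the 58 had at least 1 unique molecular identifier (UMI, a tag on each captured RNA molecule) in every sample. The cells were skeletal muscle stem cells (MuSCs) of C57BL/6J mice aged 3 to 4 months, sorted by their tdTomato reporter 14 days after tamoxifen and profiled by droplet-based single cell RNA-sequencing. The 2 control samples came from Pax7CreERT2/+;Rosa26-tdTomato+ mice, and the 2 a-cdKO samples from Ctnna1fl/fl;Ctnna3fl/fl;Pax7CreERT2/+;Rosa26-tdTomato+ mice, so Cre, reporter and tamoxifen were common to both genotypes. Cre was driven by *Pax7*, the transcription factor of MuSCs, and each sample was a pool of 2 littermates. The comparison asked in which cell states these genes were on, and whether loss of both α-catenins moved them.

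A cell leaves quiescence through G1, in which D-type cyclins and their kinases inactivate the retinoblastoma protein and free the E2F factors. E2F targets then license and copy the genome in S phase, and a later wave of genes, many of them under the DREAM, B-MYB and FOXM1 factors, prepares and runs mitosis. Adult MuSCs are mostly quiescent, enter the cycle after activation, and leave it for good when *Myog* (myogenin) starts terminal differentiation.

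Promoter sequence differed between the S and G2/M groups, which were defined by function. RefSeq windows (GRCm38.p6, 250 bases before to 50 after each start) were found for 46 of the 58 genes, 16 of S phase, 28 of G2/M and 2 cyclins. Of these genes 5 had 2 windows, and a motif was counted for a gene when any of its windows held it. On either strand, TTTGAA (the letters of a CHR element, a site known from mitotic promoters) was found for 71.4% of G2/M and 12.5% of S genes, against 20.2% of 27025 genes with a window. TTCCCGC, an E2F-type site, was found for 37.5% of S genes and for 0 of 28 G2/M genes, against 5.29% of all genes, and TTGGCGC, another, for 31.2%, 10.7% and 2.85%. CCAAT, the letters bound by NF-Y, was found for 85.7% of G2/M and 68.8% of S genes, against 41.1% of all. The following lines give the 180 bases before the start of 3 licensing genes of S phase and of 2 genes of mitosis, on the gene's own strand, with each match to these 4 motifs, on either strand, in capitals. *Mcm6* lies at chr1:128359706-128359885 (minus), *Mcm5* at chr8:75109329-75109508 (plus), *Mcm2* at chr6:88898781-88898960 (minus), *Cdk1* at chr10:69352913-69353092 (minus) and *Cdc20* at chr4:118437344-118437523 (minus).
Mcm6: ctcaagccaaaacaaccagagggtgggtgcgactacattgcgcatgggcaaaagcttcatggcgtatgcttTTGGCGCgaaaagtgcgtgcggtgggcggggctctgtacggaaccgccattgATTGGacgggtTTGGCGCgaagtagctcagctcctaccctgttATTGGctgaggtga
Mcm5: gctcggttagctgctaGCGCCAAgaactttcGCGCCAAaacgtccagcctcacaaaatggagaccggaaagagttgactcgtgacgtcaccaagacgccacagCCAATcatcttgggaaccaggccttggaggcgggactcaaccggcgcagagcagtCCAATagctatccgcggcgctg
Mcm2: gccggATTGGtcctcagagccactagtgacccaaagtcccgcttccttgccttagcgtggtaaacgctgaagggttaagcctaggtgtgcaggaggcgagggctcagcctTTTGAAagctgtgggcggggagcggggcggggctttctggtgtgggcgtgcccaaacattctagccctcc
Cdk1: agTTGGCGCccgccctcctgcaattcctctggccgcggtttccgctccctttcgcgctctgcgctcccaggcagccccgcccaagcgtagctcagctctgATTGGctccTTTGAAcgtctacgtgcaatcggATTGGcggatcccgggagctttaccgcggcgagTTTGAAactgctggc
Cdc20: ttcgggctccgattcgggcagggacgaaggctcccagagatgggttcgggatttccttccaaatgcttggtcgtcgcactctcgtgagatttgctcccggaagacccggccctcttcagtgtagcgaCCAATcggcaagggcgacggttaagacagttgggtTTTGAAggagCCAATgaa
The *Mcm6* and *Mcm5* stretches each held TTGGCGC and CCAAT at 2 places and TTTGAA at 0. The *Cdk1* stretch held TTTGAA and CCAAT at 2 places each, and TTGGCGC at 1, and *Cdc20* held TTTGAA at 1 and CCAAT at 2. The *Mcm2* stretch held CCAAT and TTTGAA at 1 place each and neither E2F-type site.

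Of 31254 barcodes, 28790 passed the filter of the study (at least 1000 UMIs, 400 genes and under 15% mitochondrial UMIs), and the samples held 46099310 to 74921651 UMIs. Between 9 and 26 barcodes were shared by each pair of samples, at most 0.383% of the smaller one. Clusters were named by lists of marker genes. Among myogenic cells, the mean log2 fold of the naming list was 1.17 in the quiescent-like cluster. It was only 0.0129 and 0.188 in the activated-like clusters high in chemokine and in chaperone genes, so their list as a whole hardly set them apart. Of these lists, the levels of *Pax7* and *Myod1* are given. *Pax7* had 169 ± 34.8 CPM (UMIs of the gene scaled to a common total, SD, n = 4 samples) in quiescent-like and 61.1 ± 28.4 in activated-like cells, and *Myod1*, a factor of activation, had 125 ± 16.7 and 688 ± 174.7. The activated-like cells formed a cluster high in chemokine genes and one high in chaperone genes. *Fos* and *Jun* led the quiescent-like cluster. The paper proposes that many cells there were at the start of activation, likely because of cell isolation. It adds that expression changes from isolation made differences in early activation hard to identify. Each myogenic cell of at least 2000 UMIs was thinned to 2000 UMIs and gated on 58 other cell cycle genes, 23 of S phase and 35 of G2/M, none of them described here. With at least 3 gate UMIs a cell was called cycling, with 0 noncycling, and with 1 or 2 it lay between. Of 26781 myogenic cells, 552 were cycling and 4018 lay between. The noncycling cells comprised 17462 activated-like, 4233 quiescent-like and 473 Myog-positive cells, the last with at least 2 *Myog* UMIs from any myogenic cluster. Near the limit, 496 cells had 2 and 97 had 3 gate UMIs. Cycling and Myog-positive cells were deeper, with medians of 15242.5 and 14080 UMIs, than activated-like cells with 7618. CPM is taken over all UMIs of a state in a sample, which removes this difference in total.

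The members were low outside the cycle in both genotypes. In cycling cells their sum was 14719 and 20105 CPM in control 1 and 2, and 15698 and 15708 in a-cdKO 1 and 2. In noncycling activated-like cells it was 607, 591, 633 and 617 in the same order. The same sum was 726 ± 33.0 in quiescent-like and 987 ± 61.5 in Myog-positive cells (SD, n = 4 samples), and 1119 ± 154 in noncycling endothelial-like cells (136 cells). It was 501 ± 57.2 in mature-muscle-like cells (859 cells) and 887 ± 205 in the myogenic cells that lay between. Every state outside the cycle was far below the cycling cells in all samples, and activated-like cells were below the noncycling endothelial-like cells. Cycling cells were set apart by other genes of the same program, so their gap to the other states is a description and was not tested.

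A member was called already on in a state when its mean level was at least 50% of that in cycling cells, part on from 10% and cycling only under 10%. The 57 genes with at least 30 UMIs in cycling cells were classed. By these means over both genotypes, 0 were already on in activated-like cells, 8 were part on and 49 were cycling only. The median was 0.953% of the cycling level. Of 10013 genes classed the same way, 62.1% were already on and 4.84% were cycling only in these cells. The gate selects cells by genes of the same program, so these shares are a description and were not tested. In cycling cells 56 of the 57 were above activated-like cells in every sample, and the remaining gene, *Pttg1*, is described last. Its part-on class held in neither genotype alone. In both control samples *Pttg1* was higher in activated-like than in cycling cells. In both a-cdKO samples it was under 10% of the cycling level.

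**Figure D1:**
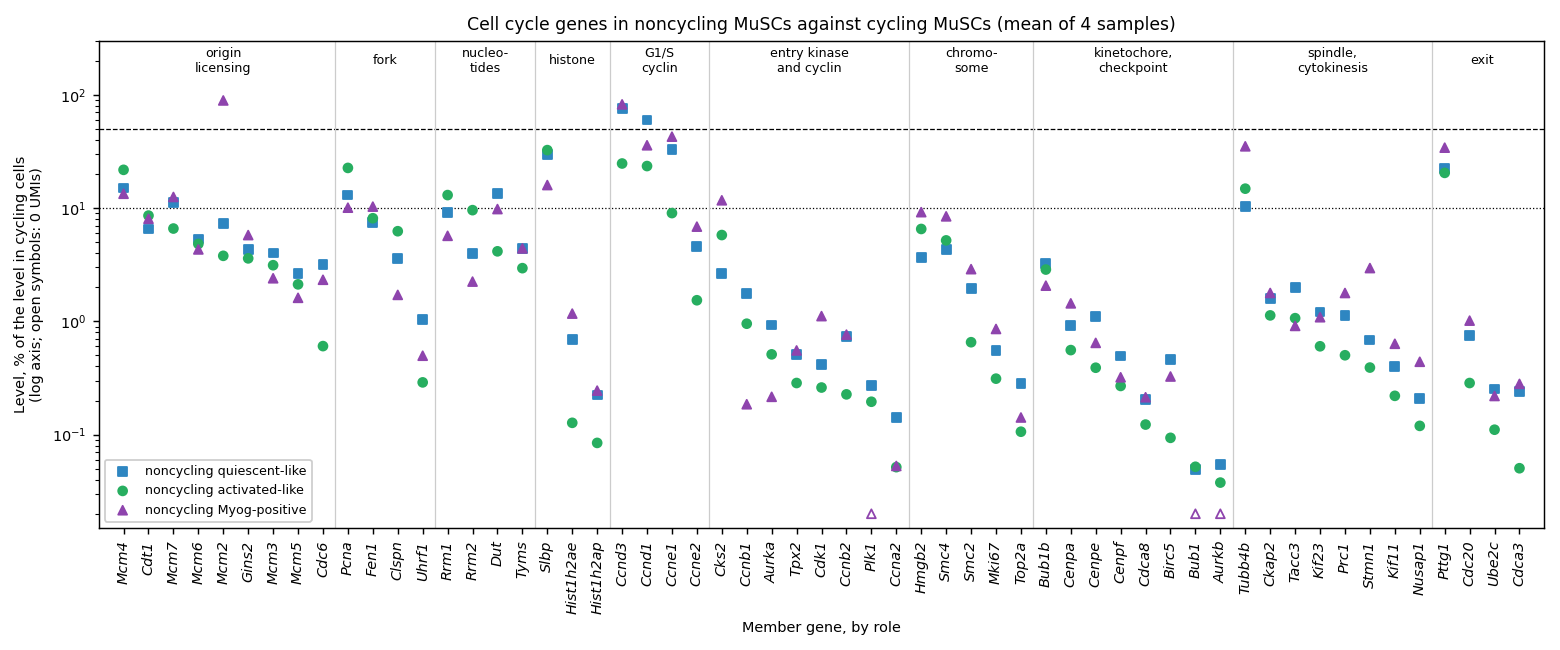
Level of each of the 57 classed genes in noncycling activated-like, quiescent-like and Myog-positive cells as a percent of its level in cycling cells (log axis, means over 4 samples; dashed line 50%, dotted line 10%; open symbols at the bottom are genes with 0 UMIs). Activated-like cells have 0 genes above the upper line, and *Ccnd3*, *Ccnd1* and *Mcm2* pass it in quiescent-like or Myog-positive cells.

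The S phase genes gave 4 of the 8 part-on members, *Slbp* (32.5% of the cycling level), *Pcna* (22.6%), *Mcm4* (21.7%) and *Rrm1* (13.0%). Among the 9 genes of origin licensing, *Mcm4*, a subunit of the replicative helicase, had the highest share. It had 21.8 and 15.8 CPM in activated-like cells of control 1 and 2, 11.2 and 10.8 in a-cdKO 1 and 2, and 105, 54.6, 57.0 and 57.2 in cycling cells. *Cdc6*, which loads that helicase, had the lowest at 0.604%, with 0.0922, 0.195, 0.0458 and 0.124 in activated-like cells (16 UMIs in all) and 27.2, 11.2, 17.4 and 19.8 in cycling cells. Each gene was thus higher in cycling cells in every sample, by factors that differed widely between genes of the same complex or pathway. The other licensing genes (*Mcm2*, *Mcm3*, *Mcm5*, *Mcm6*, *Mcm7*, *Gins2* and *Cdt1*) had 2.12% to 8.58%.

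At the replication fork, *Pcna*, the sliding clamp of DNA polymerases, had 56.1, 77.6, 62.1 and 64.1 CPM in activated-like cells and 341, 285, 242 and 282 in cycling cells. *Uhrf1*, which carries DNA methylation through replication, was at 0.289%, with 0.338, 0.156, 0.344 and 0.186 against 120, 84.2, 67.3 and 83.0. *Clspn* and *Fen1* were at 6.24% and 8.13%. For nucleotide supply, *Rrm1*, the large subunit of ribonucleotide reductase, had 15.8, 13.0, 9.67 and 10.3 CPM in activated-like cells against 83.4, 116, 88.3 and 86.8 in cycling cells. *Tyms*, which makes thymidylate, was lowest at 2.95%, with 3.90, 3.74, 4.24 and 3.48 against 145, 136, 112 and 128. *Rrm2* (9.58%), the small subunit of the same reductase, lay just under the limit of 10%. Among the 3 genes of histone supply, *Slbp*, which binds histone mRNA, had 39.7, 45.2, 55.7 and 53.2 CPM in activated-like cells and 147, 128, 173 and 149 in cycling cells. The core histone gene *Hist1h2ap* was among the most restricted, with 0.983, 1.79, 1.26 and 1.62 against 1362, 2378, 1336 and 1616. *Hist1h2ae* was at 0.127%. The binding protein and the histone genes thus lay at opposite ends, and reads of the 2 histone genes may be shared with near-identical copies.

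The part-on levels were not particular to muscle cells in these samples. In noncycling endothelial-like cells *Slbp* was at 39.997%, *Pcna* at 34.9%, *Mcm4* at 20.5% and *Rrm1* at 62.1% of the myogenic cycling level. In mature-muscle-like cells they were at 14.1%, 9.67%, 7.62% and 8.04%. Of the 57 genes, 35 were lower in activated-like than in endothelial-like cells, and the same share over all genes is not given here. After thinning, 11.5% of activated-like cells had a *Pcna* UMI (11.07 to 12.03, exact 95% binomial interval), against 18.4% of endothelial-like cells (12.3 to 25.9), 2.91% of mature-muscle-like cells (1.89 to 4.27) and 35.3% of cycling cells (31.3 to 39.5). Before thinning these were 36.8%, 48.5%, 11.1% and 76.3%, at median depths of 7618, 8029.5, 4461 and 15242.5 UMIs. What free RNA in the droplets added to these levels was not tested. Binomial intervals here cover counting error only.

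The cyclins *Ccnd1*, *Ccnd3*, *Ccne1* and *Ccne2* were higher in quiescent-like than in activated-like cells in all 4 samples, and *Ccnd2* was not. *Ccnd1*, a partner of Cdk4 and Cdk6, had 143, 148, 187 and 202 CPM in quiescent-like cells and 70.8, 55.4, 57.9 and 82.4 in activated-like cells. *Ccnd3*, its relative, had 109, 133, 114 and 113 in quiescent-like and 44.9, 34.2, 35.4 and 38.2 in activated-like cells. Both were lower in activated-like cells in every sample, at 0.392 and 0.325 of the quiescent-like level, and both were already on in quiescent-like cells, at 59.9% and 76.1% of the cycling level. What cell isolation added to the levels in either state was not tested. Within the activated-like cells, both were higher in the chaperone cluster than in the chemokine cluster in all 4 samples, by 3.35-fold for *Ccnd1* and 2.21-fold for *Ccnd3*. *Ccne1* and *Ccne2*, the partners of Cdk2, were at 9.03% and 1.53% of the cycling level in activated-like cells and at 33.1% and 4.58% in quiescent-like cells. *Ccne2*, the lowest of the cyclins, had 0.645, 0.584, 0.550 and 0.538 CPM in activated-like cells and 54.4, 28.1, 30.1 and 38.5 in cycling cells. *Ccnd2* was not classed, as it had 16 UMIs in cycling cells. It had 1.34, 1.26, 1.46 and 0.411 CPM in quiescent-like cells (30 UMIs in all), 2.46, 1.36, 2.73 and 2.65 in activated-like cells (362 UMIs) and 136, 258, 164 and 82.8 in endothelial-like cells (192 UMIs). Its level was thus highest in endothelial-like cells, and low in both myogenic states.

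Of the 33 G2/M genes, 31 were cycling only in activated-like cells and 25 were under 1% of the cycling level, with a median of 0.312%. The part-on genes were *Tubb4b* and, only by its mean over both genotypes, *Pttg1*. *Tubb4b*, a β-tubulin with uses outside the spindle, had 80.3, 70.0, 82.3 and 76.0 CPM in activated-like cells against 551, 527, 542 and 461 in cycling cells. It was also at 36.9% of the cycling level in mature-muscle-like cells. *Nusap1*, a spindle protein of the same group, was at 0.119%, with 0.215, 0.351, 0.321 and 0.435 against 239, 355, 238 and 274. RNA of the tubulin was thus detected well outside the cycle, and RNA of *Nusap1* was hardly detected there.

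The chromosome, kinase and checkpoint genes showed the same spread. *Hmgb2*, a chromatin protein, was the highest of its group at 6.54%, with 97.9, 101, 128 and 110 CPM in activated-like and 1358, 2077, 1754 and 1508 in cycling cells. *Top2a*, the topoisomerase that untangles replicated DNA, was the lowest at 0.106%, with 0.799, 0.818, 1.26 and 1.08 against 887, 1146, 848 and 849. *Mki67*, the usual marker of proliferation, was at 0.312%. Among mitotic entry genes, *Cks2*, a small Cdk-binding subunit, was at 5.78%, with 18.1, 24.8, 45.0 and 33.4 in activated-like cells against 419, 650, 543 and 490 in cycling cells. *Ccna2*, cyclin A2, was at 0.0516%, with 0.0615, 0.195, 0.0687 and 0.0828 (14 UMIs in all) against 187, 265, 161 and 178. The kinases *Cdk1*, *Aurka* and *Plk1* and the cyclins *Ccnb1* and *Ccnb2* were at 0.195% to 0.953%. At the kinetochore, *Bub1b*, a checkpoint kinase-like protein, was highest at 2.86%, with 0.676, 1.44, 3.12 and 3.13 against 47.1, 93.9, 79.4 and 71.4. *Aurkb*, the kinase that corrects chromosome attachment, was lowest of all members at 0.0377%, with 0.0307, 0.0390, 0.0687 and 0.0621 (8 UMIs in all) against 118, 162, 134 and 118. Among the genes of mitotic exit, *Cdca3* was at 0.0505%, with 0, 0.117, 0.344 and 0.104 against 196, 349, 284 and 289.

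The members were not uniformly higher in activated-like than in quiescent-like cells. Of the 57 classed genes, 28 were lower and 10 were higher in activated-like than in quiescent-like cells in all 4 samples. The share of all genes with such an order is not given here, so these counts describe the members only. Over all genes, the median was 63.0% of the cycling level in activated-like and 66.4% in quiescent-like cells. The 10 were *Rrm2* (2.39-fold), *Cks2* (2.18-fold), *Hmgb2* (1.80-fold), *Clspn* (1.74-fold), *Pcna* (1.73-fold), *Mcm4* (1.44-fold), *Tubb4b* (1.42-fold), *Rrm1* (1.42-fold), *Cdt1* (1.31-fold) and *Smc4* (1.21-fold), 6 of them S phase genes and 4 of them G2/M genes. The 28 included *Top2a* (0.376-fold), *Cdk1* (0.623-fold), *Mcm7* (0.593-fold) and all 4 classed cyclins. *Top2a* and *Cdk1* were near the floor, with 79 and 35 UMIs in all quiescent-like cells, so a few cells can set their ratios. In quiescent-like cells 2 genes were already on, 8 part on and 47 cycling only, with a median of 1.96%. Of all genes classed, 73.8% were already on and 3.28% were cycling only in quiescent-like cells. Between the activated-like clusters, 19 members were higher in the chaperone cluster and 9 in the chemokine cluster in all 4 samples. Here too, the share over all genes is not given. Of the S phase genes 7 were higher in the chemokine cluster, among them *Rrm2* (0.575-fold in the chaperone cluster) and *Pcna* (0.788-fold). *Dut*, which clears dUTP, was 2.21-fold higher in the chaperone cluster.

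Within the cycling cells, the members were compared between phases set by the gate. The gate sets the phase by other genes of the same programs, so these ratios are a description and were not tested. Cells with more S than G2/M gate UMIs (166 cells) were set against cells with more G2/M gate UMIs (348 cells), with 5 CPM added to each level. All 33 G2/M genes were lower in S-gated cells in all 4 samples, with log2 ratios from −3.22 to −0.69. *Cdc20*, which activates the anaphase-promoting complex, had 12.2, 36.4, 57.0 and 14.1 CPM in S-gated cells and 277, 342, 347 and 312 in G2/M-gated cells. Of the 20 S phase genes 17 had a positive log2 ratio, and 12 were higher in S-gated cells in all samples. *Mcm6*, another helicase subunit, had 244, 212, 152 and 115 in S-gated and 97.2, 47.8, 55.6 and 64.7 in G2/M-gated cells (log2 ratio 1.38). *Ccne2* had the highest ratio of the 57 genes at 1.497. The 3 S phase genes with a negative ratio were *Hist1h2ae* (−0.46), *Rrm1* (−0.09) and *Hist1h2ap* (−0.03). The ratio of *Hist1h2ap* ran from −1.58 to 0.88 over the samples. The G2/M genes thus all followed the gate that set the phase, and the histone genes did not.

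**Figure D2:**
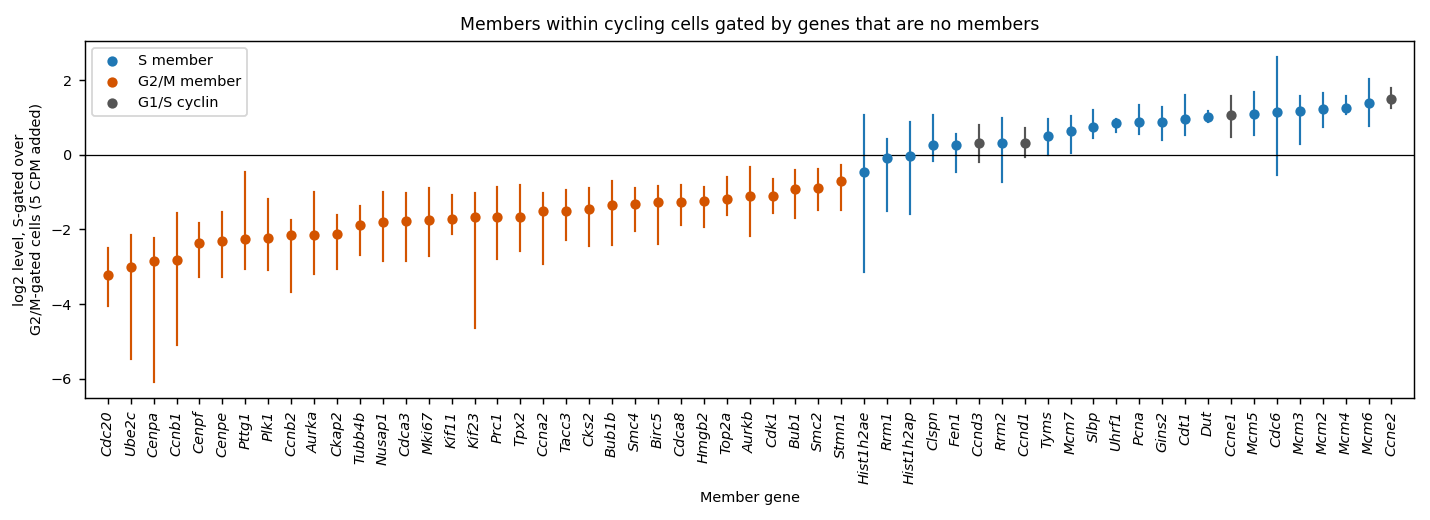
Log2 ratio of the level in S-gated over G2/M-gated cycling cells for each of the 57 classed genes (5 CPM added; points from the means of 4 samples, vertical lines the range over samples; blue S, orange G2/M, grey G1/S cyclins). All 33 G2/M genes lie below 0 over their whole range, and 3 of the 20 S phase genes lie below 0.

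Most members were low in Myog-positive noncycling cells, with 2 exceptions. The median was 1.78% of the cycling level, with 45 genes cycling only, 10 part on and 2 already on, *Mcm2* (89.1%) and *Ccnd3* (82.3%). Of all genes classed, 73.5% were already on and 4.61% were cycling only in these cells. The mitotic kinase genes *Plk1*, *Bub1* and *Aurkb* had 0 UMIs in these cells. For *Aurkb*, 0 of 473 cells had a UMI after thinning, which at a limit of 3 counts allows a share of up to 0.634% of thinned cells with a UMI, against 19.7% of cycling cells (16.5 to 23.3). Without thinning it was also 0 of 473 cells. Of the 49 genes that were cycling only in activated-like cells, 44 were also cycling only in Myog-positive cells. *Ccnd3* had 140, 110, 117 and 141 CPM in Myog-positive cells, 3.33-fold the activated-like level and higher in every sample. *Tubb4b* was at 35.1%, and *Cks2* at 11.7%. *Pcna* was 0.446-fold and *Rrm2* 0.234-fold the activated-like level, lower in every sample.

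*Mcm2* (chr6:88883474-88898780, minus strand, with no other annotated gene in this interval) stood apart from the other helicase subunits in Myog-positive cells. Its level there was 12.1, 40.3, 16.5 and 23.0 CPM, from 9, 53, 46 and 55 UMIs. In cycling cells it was 30.8, 24.9, 25.4 and 21.98, and in activated-like cells 0.830, 1.32, 0.939 and 0.808. Myog-positive cells were above activated-like cells in all 4 samples, by 23.5-fold between means, and in 2 samples, control 2 and a-cdKO 2, they were above the cycling cells too. The percent of the cycling level ranged from 39.2% to 162% over samples. The other licensing genes were at 1.61% to 13.4% there, and *Mcm5*, which sits beside *Mcm2* in the helicase ring, was at 1.61%. After thinning, 5.07% of Myog-positive cells had an *Mcm2* UMI (3.28 to 7.46), against 4.71% of cycling cells (3.10 to 6.83), 0.189% of activated-like cells (0.130 to 0.265) and 0.735% of endothelial-like cells (0.0186 to 4.03). Before thinning these shares were 21.99%, 24.3%, 0.750% and 2.21%. The highest doublet scores took in 6.13% of Myog-positive, 4.71% of cycling and 7.08% of activated-like cells. The doublet scoring had not worked on these data, so these shares cannot show whether doublets added to *Mcm2*. Under the alternatives that kept all samples, the *Mcm2* level in Myog-positive cells was 59.6% to 134% of cycling. Its promoter stretch, printed above, held CCAAT and TTTGAA.

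**Figure D3:**
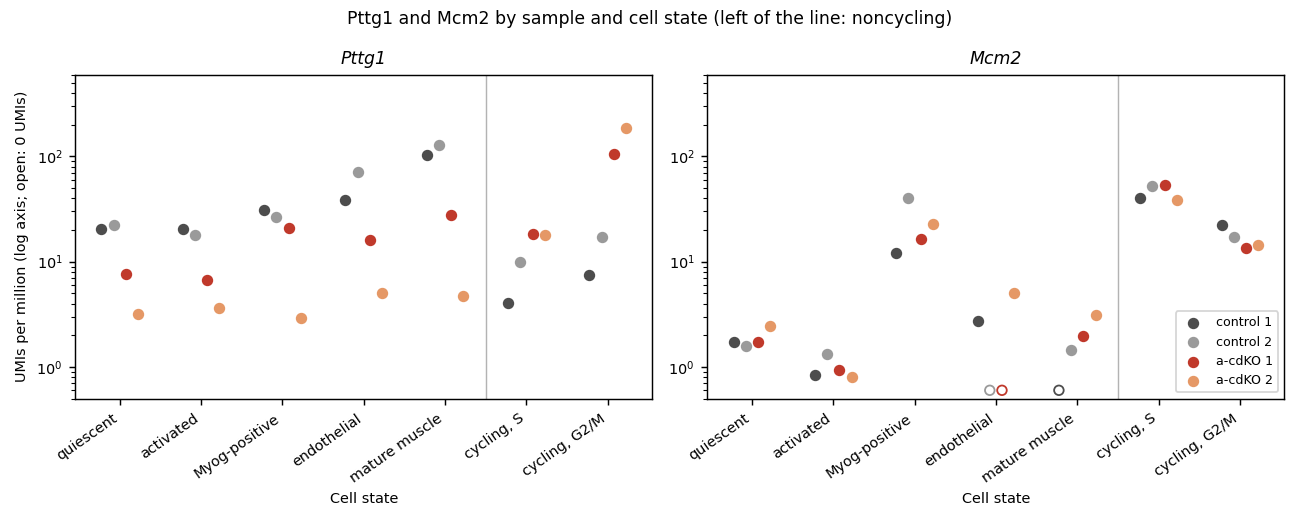
CPM of *Pttg1* and *Mcm2* in 7 cell states, a point for each sample (log axis, open symbols 0 UMIs). *Mcm2* in Myog-positive cells reaches the cycling level, at 12.1 to 40.3 against 21.98 to 30.8, and *Pttg1* is highest in control samples outside the cycle and in a-cdKO samples within it.

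A second list, 38 regulators of these genes (E2F, RB and MuvB factors, Cdks, checkpoint and origin genes), was less restricted. In activated-like cells 6 were already on, 16 part on and 16 cycling only. In quiescent-like cells these counts were 8, 18 and 12, and in Myog-positive cells 13, 13 and 12. Of all genes classed, 62.1%, 73.8% and 73.5% were already on in these states, in the same order. *E2f5*, which pairs with the pocket proteins, was at the top in activated-like cells at 280% of the cycling level, with 23.3, 22.7, 17.5 and 22.2 CPM against 9.06, 8.02, 6.34 and 7.14. *E2f8*, an atypical E2F that represses S phase genes, was at the bottom at 0.270%, with 0.0307, 0.0390, 0.0917 and 0.124 against 21.8, 31.3, 26.9 and 25.8. *E2f8* was also on in Myog-positive cells, with 6.71, 24.3, 16.1 and 19.2, or 62.7% of the cycling level, a pattern like that of *Mcm2* and noted after the values were seen. No regulator passed the genotype test in any state below.

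Cycling cells were 0.706% (0.497 to 0.972, exact 95% interval) and 1.52% (1.18 to 1.93) of myogenic cells in control 1 and 2, and 3.60% (3.23 to 4.00) and 1.46% (1.21 to 1.75) in a-cdKO 1 and 2. Control samples averaged 1.11% ± 0.574 and a-cdKO samples 2.53% ± 1.51 (SD, n = 2 each), with overlap (p = 0.6667 in a two-sided exact permutation test, where 2 samples against 2 cannot give less than 0.3333). The high sample, a-cdKO 1, held cells of both sexes. By the UMIs kept after thinning, 5.63% of its cells with *Xist* only were cycling (261 of 4640), against 0.552% of those with Y-linked genes only (10 of 1810). The Y-linked cells of control 1, control 2 and a-cdKO 2 had 0.512%, 0.913% and 0.728%. Of its cells with neither 2.06% were cycling, and of those of control 1, control 2 and a-cdKO 2 with neither 0.889%, 2.02% and 2.06%, above the Y-linked cells in each sample. The Y-linked shares are thus below those of their whole samples. The excess of a-cdKO 1 lay in its cells with *Xist* only, of which the control samples had 0 and a-cdKO 2 had 1, so mouse and sex cannot be told apart. Without any cell with a *Xist* UMI the shares were 0.708%, 1.52%, 1.23% and 1.45%. Cycling cells, with 1.19% to 7.25% of all UMIs of a sample's myogenic cells of this depth, held 21.4%, 49.1%, 61.8% and 36.9% of the members' UMIs in control 1 and 2 and a-cdKO 1 and 2. Among cells with a phase, 51.4% and 30.2% in control and 29.3% and 35.8% in a-cdKO were S-gated (exact permutation test, p = 0.6667). Myog-positive cells were 0.985% and 2.24% in control and 2.98% and 2.27% in a-cdKO, without overlap (exact permutation test, p = 0.3333), and 0.987%, 2.24%, 1.01% and 2.27% without *Xist* cells, with overlap.

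**Figure D4:**
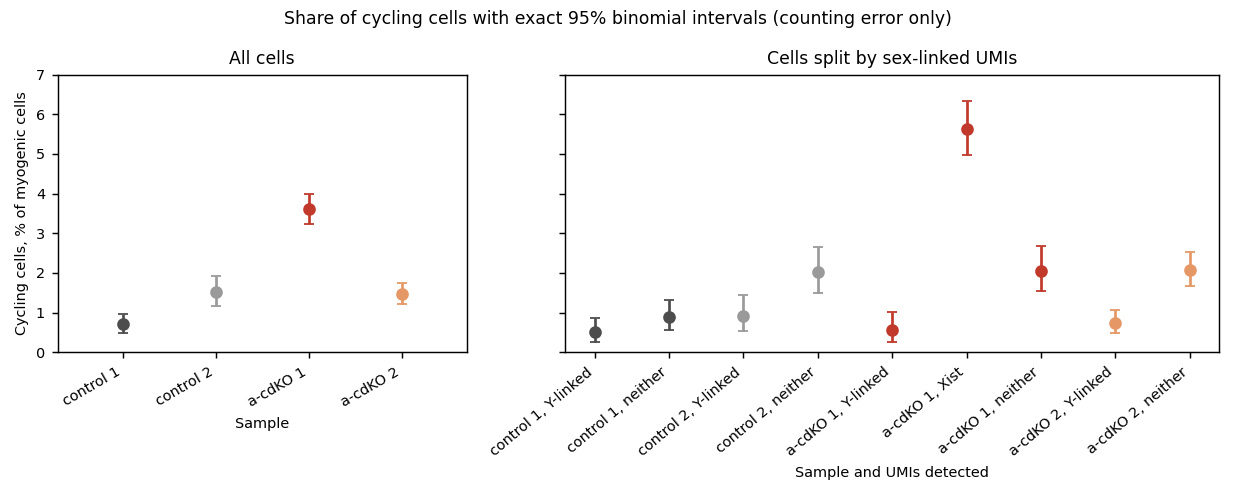
Left, percent of myogenic cells that were cycling in each sample. Right, the same share among cells with a Y-linked UMI only, *Xist* only or neither, with exact 95% binomial intervals. The cells of a-cdKO 1 with *Xist* only stand at 5.63%, and the Y-linked cells of all 4 samples lie between 0.512% and 0.913%.

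Summed over all myogenic cells, the members did not separate the genotypes. Of 58 tested genes 0 were called by edgeR's quasi-likelihood test (adjusted p under 0.05, Benjamini-Hochberg over all 14634 genes, of which 0.178% were called, 0.0752% higher and 0.103% lower in a-cdKO), 6 had an unadjusted p under 0.05 (7.02% of all genes did), and DESeq2 called 0 of the members. The median log2 fold change was 0.66, with 53 genes higher and 5 lower, against −0.01 over all genes. It was 0.88 for G2/M and 0.41 for S phase genes. The samples fell in the order of their shares of cycling cells. Sample a-cdKO 1 was highest for 51 members, control 1 lowest for 44, and control 2 was above a-cdKO 2 for 47. The median was 0.00 without a-cdKO 1 and 0.09 without cells with *Xist*. The members' sum was 817, 1254, 1839 and 1061 CPM, with overlap (exact permutation test, p = 0.6667). In all myogenic cells, a change in the number of cycling cells and one in RNA per cell cannot be told apart.

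Within states the median shift was small. The members' sum averaged 599 CPM in control and 625 in a-cdKO in noncycling activated-like cells. It averaged 699 and 753 in quiescent-like cells. In both states the genotypes did not overlap (exact permutation test, p = 0.3333, the lowest possible), and in cycling and Myog-positive cells they did. In noncycling activated-like cells 52 of the 58 genes could be tested and 1 was called, *Pttg1*, where 0.234% of 13229 genes were called, 0.121% higher and 0.113% lower in a-cdKO. At an unadjusted p under 0.05 there were 8 members, and 7.6% of all genes. The members' median was 0.08, and DESeq2 called 3 of them. In quiescent-like cells 42 were tested and 0 called (0.133% of 11297 genes, 0.0885% higher and 0.0443% lower), with 9 at an unadjusted p under 0.05 (7.83% of all genes), 1 called by DESeq2 and a median of 0.04. In cycling cells 57 were tested and 1 called, again *Pttg1* (0.0576% of 8684 genes, 0.0461% higher and 0.0115% lower), with 3 at an unadjusted p under 0.05 (7.28% of all genes), 1 called by DESeq2 and a median of −0.14. In Myog-positive cells 18 were tested and 0 called (0.0124% of 8050 genes), with 1 at an unadjusted p under 0.05 (5.27% of all genes) and 0 called by DESeq2. Over all genes, DESeq2 called 104 in activated-like, 36 in quiescent-like, 25 in cycling and 3 in Myog-positive cells, more than edgeR in each state. The genes not tested were too low for the count filter. Apart from *Pttg1*, the members of cycling cells had log2 fold changes from −0.55 to 0.47, and 44 of the 57 tested genes were below 0. The median over all genes was −0.00645, and the share of all genes below 0 is not given here. Both a-cdKO samples were below both controls for 12 members and above for 2, against 18.8% and 19.7% of all genes. Control 2 was above a-cdKO 2 for 45 members, and the members' median was 0.043 without control 2.

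Below the threshold, some genes lay apart by genotype in noncycling cells, chosen here after their values were seen. In activated-like cells, the CPM of *Bub1b* was 0.676 and 1.44 in control against 3.12 and 3.13 in a-cdKO (log2 fold change 1.599, adjusted p = 0.229 from edgeR). *Mcm4* had 21.8 and 15.8 against 11.2 and 10.8 (−0.76, adjusted p = 0.311), and *Cks2* had 18.1 and 24.8 against 45.0 and 33.4 (0.88, adjusted p = 0.327). For each the genotypes did not overlap, and none passed the adjusted threshold in edgeR's test. Of all genes tested in these cells, 18.4% had both a-cdKO samples above both controls and 19.4% had both below, and of the 52 members 15 and 7 did.

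**Figure D5:**
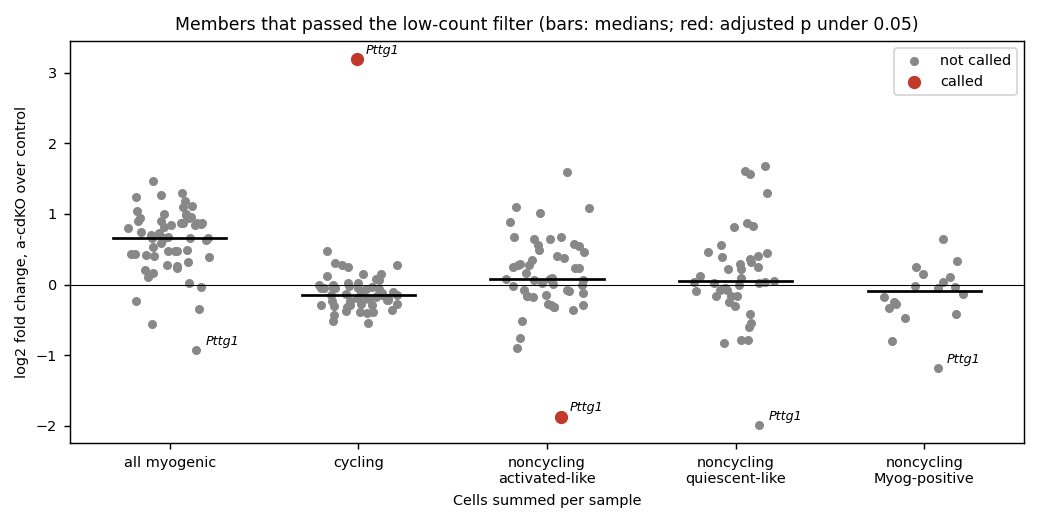
Log2 fold change of a-cdKO over control for each tested member in 5 groups of cells (points genes, bars medians, red the called gene). The medians are 0.66 in all myogenic cells and between −0.14 and 0.08 in the other groups, and *Pttg1* is called at −1.87 in activated-like and 3.19 in cycling cells.

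*Pttg1* (ENSMUSG00000020415, chr11:43420250-43426251, minus strand), which encodes securin, the inhibitor of separase that is destroyed at anaphase, differed between genotypes in opposite directions in cycling and in noncycling activated-like cells. In activated-like cells it had 20.3 and 17.9 CPM in control 1 and 2 and 6.71 and 3.64 in a-cdKO 1 and 2 (log2 fold change −1.87 with SE 0.27, edgeR adjusted p = 0.0460). In cycling cells it had 5.44 and 15.2 in control, from 3 and 19 UMIs, and 81.4 and 136 in a-cdKO, from 411 and 247 UMIs (log2 fold change 3.19 with SE 0.40, edgeR adjusted p = 0.0375). The genotypes did not overlap in either state, and the order was reversed. In quiescent-like cells it had 20.2, 22.3, 7.72 and 3.18 (log2 fold change −1.99, adjusted p = 0.0797 from edgeR). The difference between the changes in cycling and activated-like cells was 5.08 on the log2 scale (standard error 0.45, adjusted p = 3.87e-07 from edgeR with a term for each sample), in a test added after the data were seen, where 0.151% of 13261 genes were called. Both calls within a state were lost with thinning to 4000 UMIs (adjusted p = 0.0902 and 0.0949) and without control 1 (0.0544 and 0.0547), and that in activated-like cells also with Myog-positive cells taken from 1 UMI (0.0615) and with the cell cycle genes left in the clustering (0.0593).

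*Pttg1* was also read by phase and in the cells outside the myogenic states. In G2/M-gated cells it had 7.48, 17.1, 106 and 187 CPM and in S-gated cells 4.06, 9.92, 18.1 and 18.1. These came from 2, 15, 374 and 223 UMIs in G2/M-gated and 1, 3, 21 and 9 UMIs in S-gated cells, so the ratio of the phases is not determined in the controls, and its difference between genotypes was not tested. In mature-muscle-like cells it had 103, 130, 27.6 and 4.69 and in endothelial-like cells 38.2, 71.1, 16.1 and 5.02, with the controls above the a-cdKO samples in both. The a-cdKO values came from 28 and 3 UMIs in mature-muscle-like and 5 and 2 UMIs in endothelial-like cells, only noncycling cells were counted there, and the difference was not tested. In Myog-positive cells it had 30.9, 26.6, 20.8 and 2.92 (log2 fold change −1.19, adjusted p = 0.952 from edgeR). Split by the UMIs of the whole cell, activated-like cells of a-cdKO 1 with *Xist* only had 9.53 (8.31 to 10.9, exact 95% Poisson interval) and those with Y-linked genes only 2.82 (1.99 to 3.86), and among its cycling cells these were 80.1 (71.6 to 89.4) and 107 (79.2 to 141). The targeted gene *Ctnna1* had 91.1, 74.8, 79.3 and 75.5 in all myogenic cells, and 3′ tags do not check the deletion. Of 31 genes called in activated-like cells, 7 lay in a block of chromosome 2 (GRCm38, 175321955 to 177840336), chosen after the values were seen, and all 7 were lower in a-cdKO. *Pttg1* lies on chromosome 11. Loss of the α-catenins and any other difference between the mouse lines, linked alleles included, cannot be told apart for these genes. In the 5 groups of cells tested, edgeR called no other member between genotypes.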

How the data were processed

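The authors aligned and counted the 3′ v.3 libraries with Cell Ranger 7.1.0 on GRCm38 and deposited raw counts, whole numbers of UMIs for 32285 genes and each called barcode, without normalization. Whether reads in introns were counted is not given in the sources used here, and the submitters' notes also list Seurat 4.0.3. The 2 samples of a genotype are separate pools of 2 mice, so p-values measure the spread between pools.

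The filter of the study was applied, and cells were log-normalized, integrated with a reimplementation of Harmony tested on simulated data, and clustered (Louvain, resolution 0.2, Seurat 5.3.0) without the cell cycle genes. Clusters were named from lists of quiescent, activated, differentiated, mature muscle, endothelial, immune, glial, fibroblast and mural markers. Cells led by cell cycle genes stayed unnamed but were kept as myogenic. Scrublet (scanpy 1.11.5) marked 0 to 5 cells per sample and had not worked, so doublets were kept, and removing 229 to 766 top scores per sample was an alternative.

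For each state, the UMIs of a sample were added up. The test was the quasi-likelihood test of edgeR 4.0.16 in R 4.3.3, after filterByExpr and TMM scaling, with DESeq2 1.42.0 beside it. On simulated data with 200 changed genes, edgeR recovered 92% of those with a log2 change of 2 in activated-like cells (13229 genes). It recovered 81% in cycling cells (8684 genes) and 83% in Myog-positive cells (8050 genes), with 0 in the wrong direction. At a log2 change of 1 it recovered 47%, 28% and 32% in the same order, so most changes of that size were missed. It also called 8, 9 and 20 unchanged genes. Shares were compared by an exact permutation test over samples.

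Values in every sample are given for the highest and lowest gene of each functional group by the ratio of activated-like to cycling level, and for called genes. The members, groups, gate genes and regulators were chosen with earlier results of these data known. Of the 58 members, 31 overlap another annotated gene, 25 of them one on the other strand and 11 one on the same strand.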

Additional observations from a re-analysis of the deposited data

Results flagged for a closer look

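The genotype change of *Pttg1* differed between cell states. Its log2 change between genotypes was 5.08 higher in cycling than in noncycling activated-like cells (standard error 0.45, adjusted p = 3.87e-07 from edgeR, with a term for each sample). Both a-cdKO samples were above both controls in cycling cells and below them in activated-like cells. Over the 18 alternatives run for this difference it stayed called, from 4.24 to 6.28. The neighboring gene *Slu7* was at a CPM of 15.4 and 16.2 in activated-like cells of control samples, against 17.6 and 15.7 in those of a-cdKO, with overlap.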

How the results depend on the processing

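The ratios of shares and counts of classes mostly kept their direction. Without each sample in turn, the log2 ratio of the cycling share ran from 0.39 to 1.84, that of the S-gated share from −0.66 to 0.11 (it reversed to 0.11 without control 1) and that of the Myog-positive share from 0.23 to 1.41, the part-on members of activated-like cells from 8 to 9 and the already-on members of Myog-positive cells from 2 to 3. With a gate of 2 UMIs these were 14 and 4.

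Called genes without each sample ran from 0 to 65 in all myogenic, 30 to 94 in activated-like, 1 to 63 in quiescent-like, 19 to 80 in cycling and 0 to 25 in Myog-positive cells, and 15 to 210 for the difference between states. Called members ran from 0 to 1, 0 to 3, 0 to 2, 0 to 5, 0 to 0 and 1 to 6, and medians of the members from 0.0014 to 1.39, 0.050 to 0.20, −0.041 to 0.26, −0.22 to 0.043 and −0.31 to 0.15.

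DESeq2 called 122, 104, 36, 25 and 3 genes in the 5 groups of cells in the same order, with 3 members in activated-like and 1 in quiescent-like cells. Without the count filter 12, 378, 261, 146 and 89 genes were called, with 5 members in activated-like and 5 in quiescent-like cells, medians of 0.14 in quiescent-like and 0.19 in Myog-positive cells, and 78 genes with 3 members for the difference. With the replicate block, whose numbers did not mark a pairing (correlation −0.238 across genes), 79 genes were called in activated-like, 54 in quiescent-like with 1 member, 35 in cycling and 5 in Myog-positive cells. With the crossed pairing, chosen after seeing the data, 159, 74, 49, 77 and 5 genes and 17, 3 and 1 members in the first 3 groups were called.

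Thinning to 4000 UMIs gave 19 genes and 0 members in activated-like cells, 3 genes and 0 members with a median of 0.081 in cycling cells, and 6 for the difference. Gating whole cells gave 20 genes and a median of −0.061 in activated-like, 9 in quiescent-like and 2 in Myog-positive cells, and 2 for the difference. Leaving the cell cycle genes in the clustering gave 0 members in activated-like cells, 8 genes in quiescent-like cells and 6 for the difference, and Myog-positive cells from 1 UMI gave 0 members in activated-like cells. Quiescent-like cells had 8 called genes without integration and 8 with other seeds, which gave 7 for the difference. Without cells with *Xist*, 1 member was called in all myogenic cells, 25 genes and 1 member in quiescent-like, 10 genes in cycling and 2 in Myog-positive cells, and 12 for the difference. A gate of 5 gave 8 genes in cycling cells and 70 genes with 3 members for the difference, and a gate of 2 a median of 0.23 in cycling cells and 2 genes for the difference. Removing top doublet scores gave 57 genes and 2 members for the difference, and resolution 0.4 gave 2 members. For results that moved, the cause was not tested. Genes under the filter, with few UMIs in 37 to 333 cycling cells a sample, limit the tests.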
